A study of Mus musculus with 2 samples.

Results

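The genes examined here encode the proteins that detect DNA damage, signal it and repair it. They are 37 genes given as a list of symbols by pathway, with no threshold on a measured value, out of 50508 genes in an RNA sequencing table of mouse embryonic stem cells. All 37 symbols are in the table, and 36 have a mean level of at least 1 FPKM over both libraries, the limit below which a gene is called not measured here. FPKM scales the reads of a gene to its length and to the depth of the library. The member below the limit is Xrcc4, with a mean of 0.99 FPKM.

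The cells were E14, an embryonic stem cell line of the strain 129/Ola, at passages 15 to 18, grown on gelatin with 15% serum and with leukemia inhibitory factor (LIF) at 1000 U/ml, a cytokine that maintains the undifferentiated state. They received either a scramble siRNA or a Mettl8 siRNA, carried by a lipid reagent, and total RNA was collected after 72 h. By their labels, both groups share the line, the medium and the transfection. The labels list 1 library per group, although the series' design text speaks of triplicates, and no label says whether a library pools several cultures.

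The libraries are called scramble-labelled and Mettl8-labelled below, because Mettl8, the targeted gene, goes against its label: its level was 0.67 FPKM (107 reads) in the first and 100.3 FPKM (15614 reads) in the second. Higher and lower always mean the Mettl8-labelled library against the scramble-labelled one, and values are given in the order scramble-labelled, Mettl8-labelled. The reads assigned to genes numbered 22213892 and 21418808. The stem cell markers Pou5f1, Nanog, Sox2, Zfp42, Esrrb, Tdgf1, Dppa5a and Fgf4 were all above 34 FPKM in both libraries. Of these 8, 7 were lower in the Mettl8-labelled library, where 45.0% of all 13243 measured genes were lower. The differences of the 8 on the log2(FPKM + 1) scale ran from -0.14 to 0.074, with a median of -0.048. The counting interval of the FPKM ratio, described below, lay below 1 for 4 of the 8, against 7.85% of all genes. It lay above 1 for Pou5f1, the marker that was higher, with a ratio of 1.05 (1.02 to 1.08). None of 8 fibroblast, 6 primitive endoderm and 6 trophectoderm markers reached a mean of 1 FPKM, and their summed levels were 1.21 and 1.09, 0.81 and 1.19, and 1.04 and 1.21 FPKM. None of the 20 was at 0 in both libraries, and the fibroblast collagen genes Col1a1, Col1a2 and Col3a1 lay at 0.12 FPKM or below. The highest of the fibroblast list were Thy1, at 0.66 and 0.64 FPKM, and Pdgfrb, at 0.42 and 0.27 FPKM.

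Cells meet DNA damage with several partly separate pathways. The kinases ATM and ATR sense broken or stalled DNA and pass the signal to the checkpoint kinases CHK1 and CHK2. Breaks through both strands are rejoined directly by end joining or copied from the sister chromatid by homologous recombination, crosslinks between the strands are handled by the Fanconi pathway, mispaired bases by mismatch repair and damaged bases by base excision repair. Embryonic stem cells divide fast, have a very short G1 phase, and are known for high expression of repair genes and for frequent use of homologous recombination.

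The promoters of these genes are shown first, because many of the pathway's genes are known targets of E2F factors, which drive transcription at the start of DNA synthesis. RefSeq promoter entries on GRCm38.p6, from 250 bases before to 50 bases after the start, matched 31 of the 37 genes. The letters searched, on both strands, were TTCCCGC, then TTCGCGC, then TTGCCGC, then TTGGCGC, which are 4 spellings of the E2F core. At least 1 of them stood in 18 of the 31 promoters (58.1%), against 12.7% of 16521 promoters of protein-coding genes and 19.0% of the 7782 whose gene had a mean of at least 1 FPKM. The CCAAT box, searched as CCAAT on both strands, also stood in 18 promoters (58.1%, against 38.5% and 40.0%), and 10 promoters held both. The last E2F spelling and the reverse complement of CCAAT share 4 letters and can overlap. The median number of CpG pairs was 23, against 14 and 22. The ETS core CGGAAGT stood in 4 (12.9%, against 9.07% and 16.0%). Such a match is a description of letters and not a measured binding site.

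The promoters of 5 genes are shown, each with the match in capitals and 20 bases on either side. They were picked because they come from 4 pathways and their match lies before the RefSeq start and outside every annotated exon. All are written 5′ to 3′ on the strand of the gene, and a match to the opposite strand therefore appears as its reverse complement.
Chek2: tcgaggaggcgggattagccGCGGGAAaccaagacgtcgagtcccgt
Bard1: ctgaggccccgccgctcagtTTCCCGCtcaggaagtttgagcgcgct
Brca2: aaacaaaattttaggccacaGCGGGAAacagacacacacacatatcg
Fancb: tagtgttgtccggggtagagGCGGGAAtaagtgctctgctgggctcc
Lig4: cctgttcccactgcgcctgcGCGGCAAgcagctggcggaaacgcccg
The stretches lie at chr5:110839811-110839857 (Chek2, plus strand), chr1:71103154-71103200 (Bard1, minus strand), chr5:150522433-150522479 (Brca2, plus strand), chrX:164980400-164980446 (Fancb, plus strand) and chr8:9976364-9976410 (Lig4, minus strand). The first base of the match is 152 bases before the RefSeq start in Chek2, 208 in Bard1, 168 in Brca2, 172 in Fancb and 79 in Lig4. In Bard1 that start is 174 bases from the start of the chosen GENCODE transcript. The Lig4 stretch lies within the GENCODE span of the gene (9969049 to 9977686), so it is not before every annotated start. The plain spelling on the gene's own strand was found in Bard1, and the reverse complement in the other 4.

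Across the 36 measured genes the libraries differed by little, and more genes were higher than lower in the Mettl8-labelled library. On the log2(FPKM + 1) scale, which understates the difference of low genes, 28 of 36 were higher, where 54.1% of all 13243 measured genes were higher. The other 8 were lower, where 45.0% of all genes were lower. The median difference was 0.061, against 0.013 over all genes, and the range was -0.093 to 0.21. In bulk RNA, fewer cells of a type and less RNA per cell cannot be told apart. Since each group has 1 library, no difference could be tested against variation between cultures, and p-values are left out. With both libraries rescaled to the same FPKM sum, 35 of 36 members and 75.5% of all genes were higher. With the Mettl8-labelled library rescaled so that the median ratio of genes at a mean of at least 5 FPKM was 1, called median-ratio scaling below, 25 of 36 members and 47.3% of all genes were higher.

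No member differed by 1.2-fold in either direction on this scale at the deposited gene lengths. Over all genes, 4.48% were higher by that much and 5.01% lower, and 2.11% passed 1.5-fold, which no member did. Most genes past that limit are short. Among genes of at least 1000 bases the shares were 1.16% and 1.29%, and among those of at least 4000 bases 0.290% and 0.309%. The deposited lengths of the members run from 1422 bases in Apex1 to 23629 in Atr. Their reads over both libraries together run from 235 for Xrcc4 to 21604 for Msh6, with a median of 2631, so that differences near 1.1-fold can exceed counting error.

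The exact Clopper-Pearson 95% interval of the FPKM ratio lay above 1 for 12 of the 36 genes and below 1 for none. Over all genes such intervals lay above 1 for 11.6% and below 1 for 7.85%. Among protein-coding genes with at least 200 reads in both libraries together, the shares were 14.5% and 8.94%. These intervals cover counting error only and compare the libraries, not the conditions. With median-ratio scaling, 7 member intervals lay above 1 and 1, that of Ung, below it, against 7.73% and 11.1% of all genes. With equal FPKM sums, 26 lay above 1 and none below, against 30.3% and 2.21% of all genes.

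**Figure D1:**
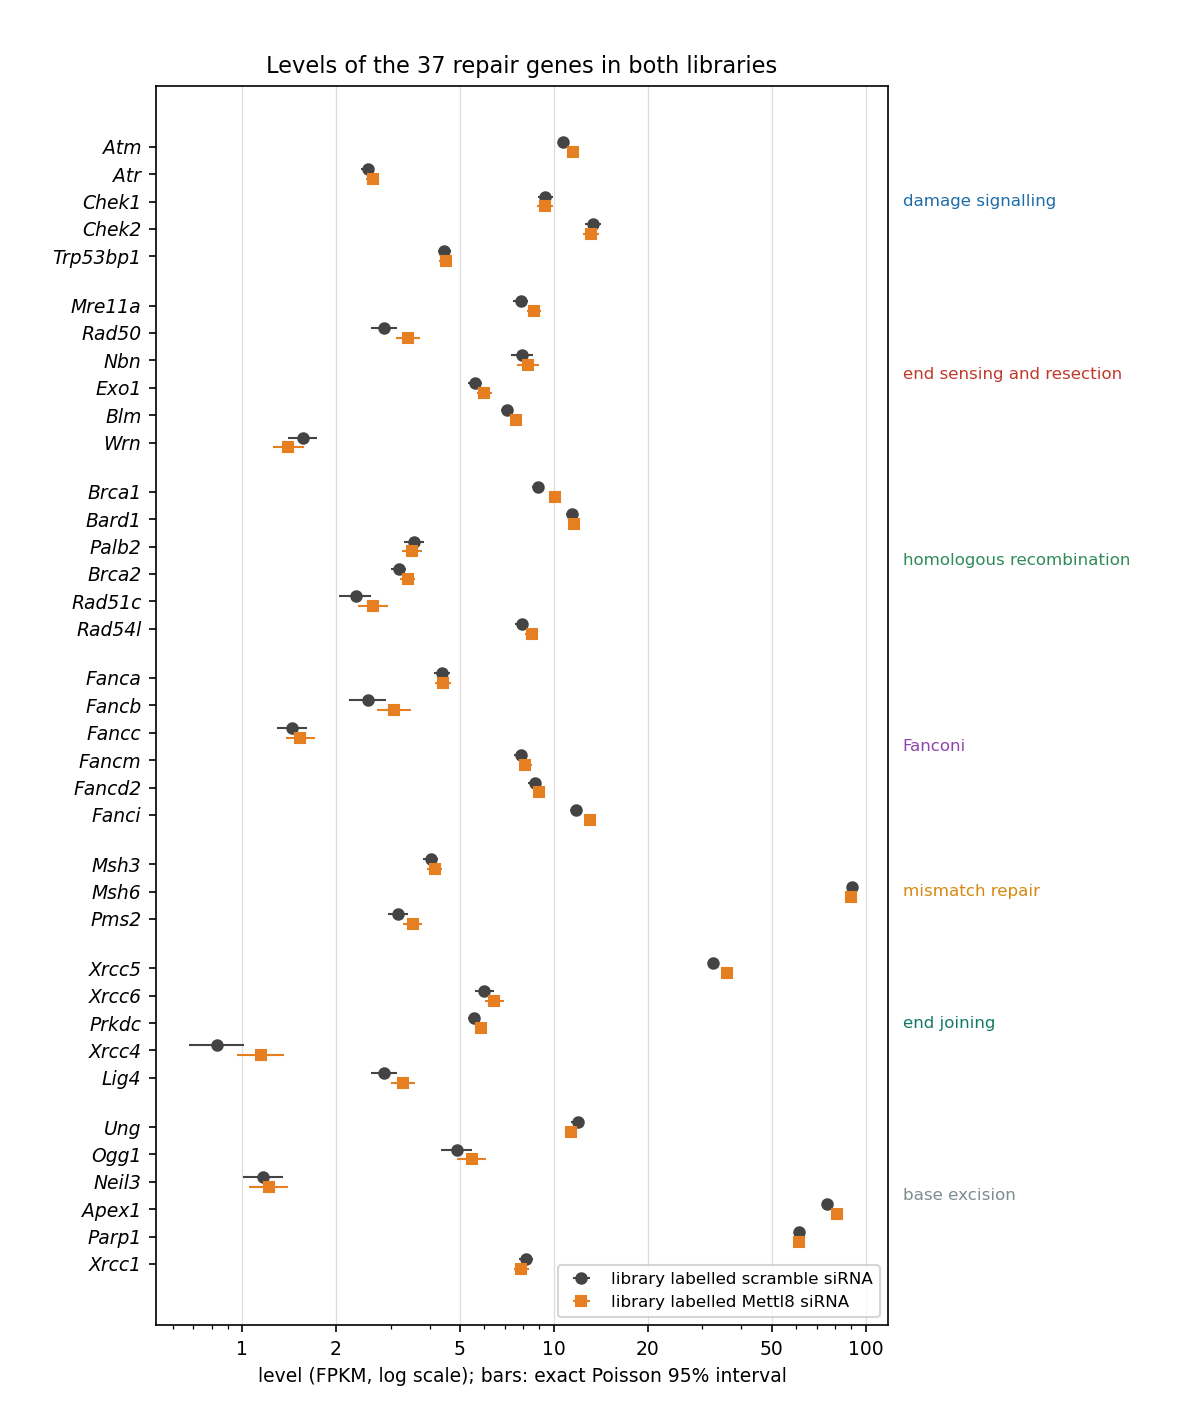
Level of each of the 37 genes (rows, grouped by pathway) in FPKM on a log axis, as a grey circle for the scramble-labelled library and an orange square for the Mettl8-labelled library, with exact Poisson 95% intervals. Msh6, Apex1, Parp1 and Xrcc5 stand above 30 FPKM in both libraries and all other genes below 15, and the symbols of each gene lie close together.

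**Figure D2:**
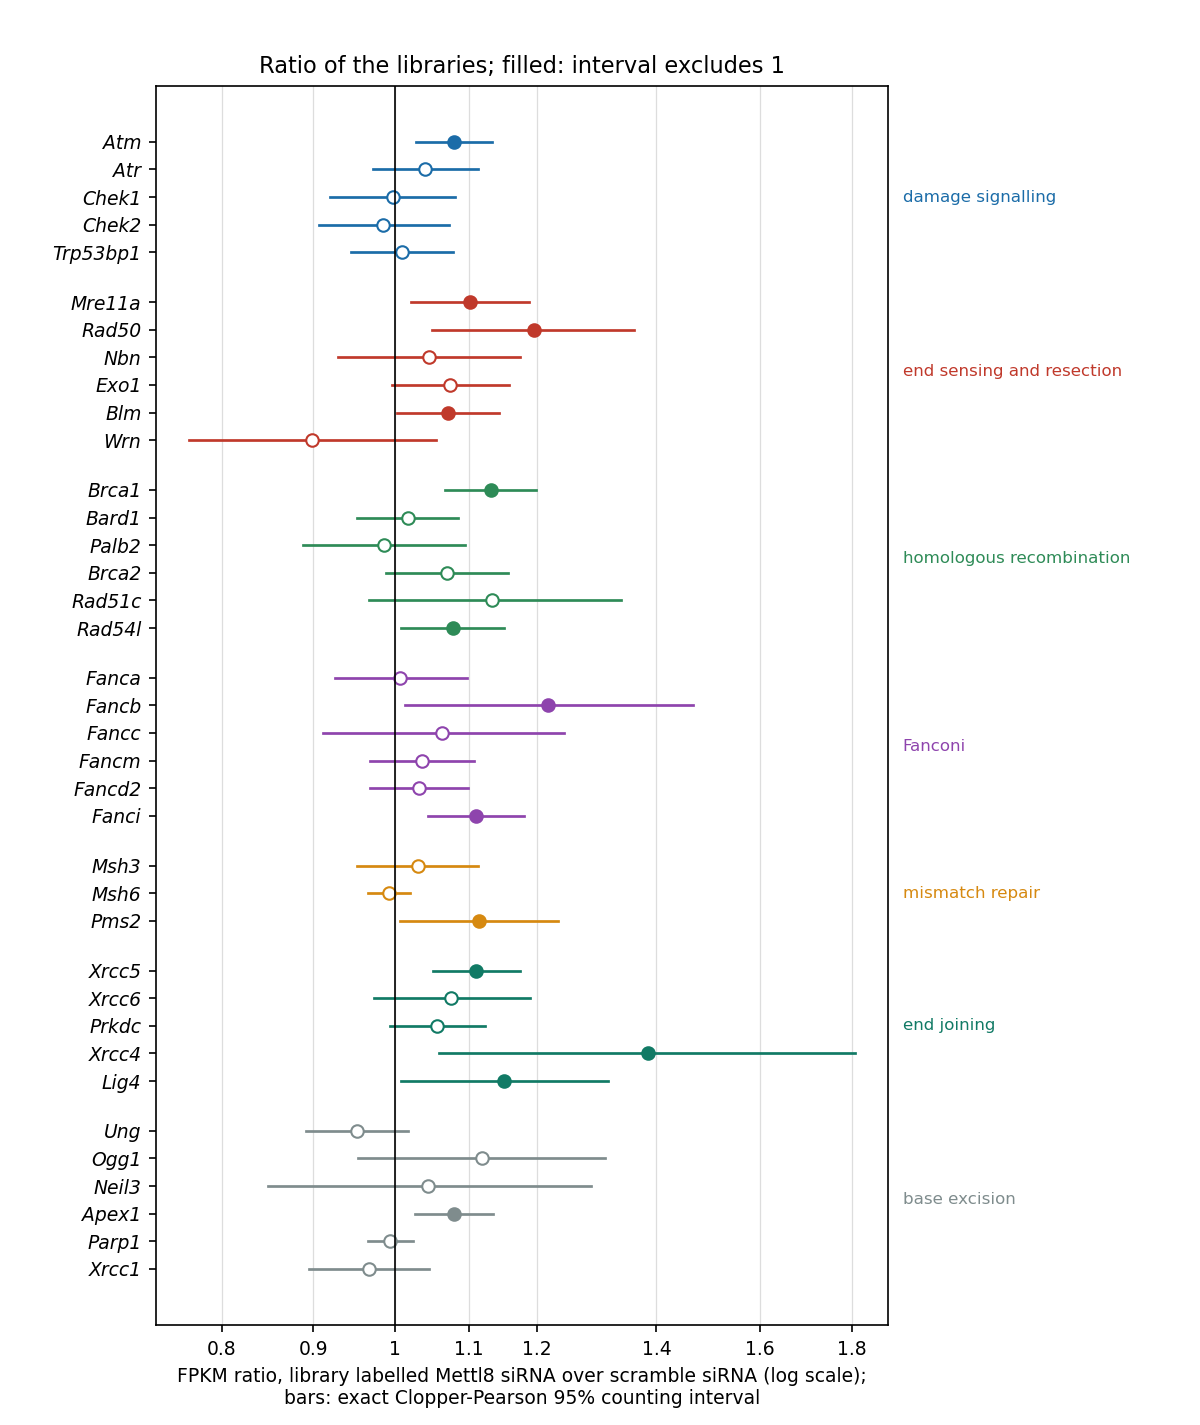
FPKM ratio of the Mettl8-labelled library to the scramble-labelled library for each gene, on a log axis, with its exact Clopper-Pearson 95% counting interval. Filled points, 12 measured genes and Xrcc4, have an interval above 1, and the vertical line marks a ratio of 1. With median-ratio scaling, 7 measured genes keep an interval above 1, and Trp53bp1, Bard1 and Fanca change sign.

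The genes of damage signalling differed little between the libraries, with 3 of 5 higher and a median difference of 0.011. For this and every later pathway count, the share of all genes that were higher was 54.1%. Atm, the kinase activated at double-strand breaks, was at 10.7 and 11.5 FPKM, a ratio of 1.08 (1.03 to 1.13). It was the only gene of this group with an interval above 1. Atr, the kinase activated by single-stranded DNA at stalled forks, was at 2.53 and 2.63 FPKM. Its intervals overlapped between the libraries. The ATR effector Chek1 was at 9.41 and 9.38 FPKM. Chek2, the effector of ATM, was at 13.4 and 13.2 FPKM, a ratio of 0.985 (0.906 to 1.07). Trp53bp1 encodes 53BP1, which shields broken ends from resection, and was at 4.46 and 4.50 FPKM. The difference of Trp53bp1 turned negative with median-ratio scaling, and those of Chek1 and Chek2 turned positive with equal FPKM sums.

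Of the genes that bind and trim broken ends, 5 of 6 were higher, where 54.1% of all genes were. Their median difference was 0.087. MRE11, RAD50 and NBN form 1 complex that holds the ends and starts resection. Mre11a was at 7.85 and 8.64 FPKM, a ratio of 1.101 (1.02 to 1.19). Rad50 was at 2.86 FPKM (2.60 to 3.14, exact Poisson 95% interval) and 3.42 (3.13 to 3.73), a ratio of 1.196 (1.05 to 1.36), the second largest ratio among measured members. Nbn was at 7.91 and 8.26 FPKM, with an interval of the ratio that holds 1 (0.929 to 1.17). All 3 subunits were thus higher, by 0.12, 0.20 and 0.056 on the log2 scale. Exo1, the nuclease of long-range resection, was at 5.59 and 6.0 FPKM. Blm encodes the Bloom syndrome helicase and was at 7.09 and 7.59 FPKM, a ratio of 1.07 (1.003 to 1.14). Wrn, the gene of the Werner syndrome helicase, was at 1.57 and 1.41 FPKM. It had the lowest difference of all members, -0.093, with an interval of the ratio from 0.767 to 1.05.

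The homologous recombination genes were also mostly higher, 5 of 6 where 54.1% of all genes were, with a median of 0.085. Brca1, whose protein helps choose recombination over end joining, was at 8.92 FPKM (8.55 to 9.30) and 10.1 (9.69 to 10.5). These intervals do not overlap, and the ratio was 1.13 (1.07 to 1.2), from 2166 and 2395 reads. Brca1 is ENSMUSG00000017146.12, on the minus strand of chromosome 11 from 101488764 to 101551955 (GRCm38). Bard1, the gene of its obligate partner, was at 11.4 and 11.6 FPKM, a ratio of 1.02 (0.952 to 1.09), and its difference turned negative with median-ratio scaling. Palb2 links BRCA1 to BRCA2 and was at 3.56 and 3.51 FPKM, and its difference turned positive with equal FPKM sums. Brca2, whose protein loads the recombinase onto resected DNA, was at 3.18 and 3.40 FPKM. Neither gene had an interval that excludes 1. Rad51c, which encodes a recombination mediator, was at 2.32 and 2.63 FPKM, a ratio of 1.13 whose interval (0.966 to 1.34) is wide because the gene had only 289 and 321 reads. Rad54l encodes a motor protein that helps pair the strands and was at 7.89 and 8.50 FPKM, a ratio of 1.08 (1.01 to 1.15).

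All 6 Fanconi genes were higher, with a median of 0.049, where 54.1% of all genes were higher. Fanca turned lower with median-ratio scaling. FANCI and FANCD2 form the clamp that is placed on crosslinked DNA. Fanci was at 11.8 FPKM (11.2 to 12.3) and 13.1 (12.5 to 13.6), a ratio of 1.11 (1.04 to 1.18). Fancd2 was at 8.68 and 8.95 FPKM, a ratio of 1.03 (0.968 to 1.098). The partner genes thus differ in whether their interval excludes 1, but those intervals overlap each other. Fancb, an X-linked gene of the core complex that attaches ubiquitin to the clamp, was at 2.53 and 3.08 FPKM. Its difference of 0.21 was the largest of the measured members, with a ratio of 1.22 and an interval from 1.01 to 1.47 on 215 and 256 reads. Fanca and Fancc, also of the core complex, were at 4.38 and 4.41 and at 1.45 and 1.54 FPKM. Fancm, which anchors the core complex to DNA, was at 7.84 and 8.12 FPKM. No interval of these 3 excluded 1.

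Mismatch repair held the most abundant member. Msh6, whose protein takes part in finding single mispaired bases, was at 90.6 FPKM (88.9 to 92.3) and 89.9 (88.2 to 91.6). It ranked 192 and 198 among the 21490 protein-coding genes of the table. With 10969 and 10635 reads its ratio of 0.992 had an interval of only 0.966 to 1.02. With equal FPKM sums its difference went from -0.011 to 0.081 and its interval lay above 1, as for 30.3% of all genes. Msh3, whose protein takes part in finding longer loops, was at 4.04 and 4.16 FPKM. Pms2, the gene of the nuclease subunit that cuts the new strand, was at 3.17 and 3.53 FPKM, a ratio of 1.11 (1.01 to 1.23).

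The 4 measured end joining genes were all higher, with a median of 0.12, where 54.1% of all genes were higher. All 4 stayed higher under both rescalings. With median-ratio scaling 47.3% of all genes were higher, and with equal FPKM sums 75.5%. The Ku dimer of the XRCC5 and XRCC6 proteins binds the ends and recruits the kinase PRKDC. Xrcc5, which encodes Ku80, was at 32.4 FPKM (31.1 to 33.8) and 36.0 (34.6 to 37.4), intervals that do not overlap, with a ratio of 1.11 (1.05 to 1.17). Xrcc6, which encodes Ku70, was at 6.0 and 6.45 FPKM, a ratio of 1.08 (0.973 to 1.19). Prkdc was at 5.54 and 5.85 FPKM, a ratio of 1.06 (0.994 to 1.12). The ligase gene Lig4 was at 2.86 and 3.29 FPKM, a ratio of 1.15 (1.01 to 1.32). Xrcc4, which encodes the partner that stabilises the ligase, was at 0.83 FPKM (0.679 to 1.01) and 1.15 (0.966 to 1.36). Its ratio of 1.39 (1.06 to 1.81) is the largest of all 37 genes, rests on 100 and 135 reads, and is outside the counts above because its mean is below 1 FPKM.

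Base excision repair was split, with 3 of 6 genes higher and a median of 0.012. Apex1 encodes the endonuclease that cuts at sites without a base and was at 75.2 FPKM (72.5 to 77.9) and 81.1 (78.3 to 84.0), a ratio of 1.08 (1.03 to 1.13). It was the only gene of this pathway with an interval above 1. Parp1, whose enzyme marks strand breaks with poly(ADP-ribose), was at 61.4 and 61.0 FPKM, a ratio of 0.994 (0.965 to 1.02). Xrcc1, the scaffold that PARP1 recruits, was at 8.15 and 7.88 FPKM. Ung, the glycosylase that removes uracil, was at 11.9 and 11.4 FPKM, a ratio of 0.952 (0.891 to 1.02). These 3 were the lower genes of the group, and each turned higher with equal FPKM sums. Ogg1, the glycosylase for oxidised guanine, was at 4.88 and 5.46 FPKM, a ratio of 1.12 (0.954 to 1.31). Neil3, a glycosylase that also opens some crosslinks, was at 1.17 and 1.22 FPKM. Both intervals hold 1.

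The order of the levels was nearly the same in both libraries, as in the plot of levels by pathway. The first 5 places went to Msh6, Apex1, Parp1, Xrcc5 and Chek2 in each. Of the 37 genes 17 kept their place and none moved by more than 4 places. Many neighbours in this order cannot be ranked by these data: Nbn, Rad54l, Mre11a and Fancm, at 7.91, 7.89, 7.85 and 7.84 FPKM in the scramble-labelled library, lie within each other's intervals. The median over all 37 members, Xrcc4 included, was 6.0 and 6.45 FPKM. Over the 36 measured members it was 6.545 and 7.02 FPKM, against 5.25 and 5.32 for all 9965 measured protein-coding genes. In both libraries 15 members were below 5 FPKM, 17 between 5 and 15 and 4 above 30, with Ogg1 crossing 5 between the libraries.

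The order of levels depends on the length by which the reads are divided. The deposited length equals the union of all annotated exons in GENCODE M21 for 34 of the 37 genes, and for 12 of the 37 it is at least 1.5 times that of the chosen coding transcript, the longest of those ranked as principal in GENCODE. Atr has a deposited length of 23629 bases and a transcript of 8102. Divided by the transcript, its level in the scramble-labelled library is 7.38 FPKM rather than 2.53. The value by transcript can overstate the level of that transcript, because reads on exons outside it are counted too. Atm exceeded Atr 4.22-fold by deposited length and 1.53-fold by transcript. Xrcc5 exceeded Xrcc6 5.41-fold and 3.98-fold, so the Ku genes remained far apart on both scales. Msh6 exceeded Msh3 22.4-fold by deposited length and 7.87-fold by transcript. Brca1 relative to Bard1 was 0.780 by deposited length and 1.01 by transcript. The FPKM ratio between the libraries is unaffected by length, but the filter at 1 FPKM and the log2(FPKM + 1) difference are not. Divided by its transcript, Xrcc4 would be at 2.28 and 3.15 FPKM, above the filter. The counts of measured members and of members past 1.2-fold therefore hold for the deposited lengths only.

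**Figure D3:**
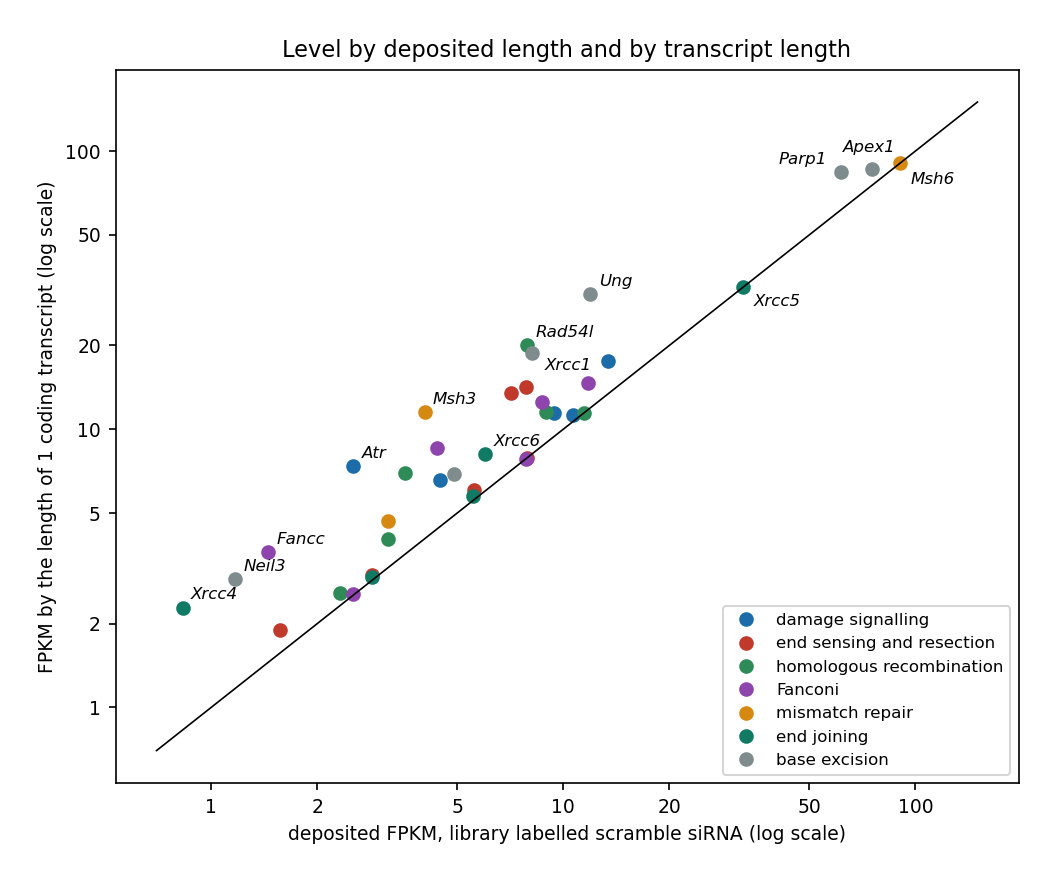
Level of each of the 37 genes in the scramble-labelled library, as deposited (horizontal axis) and when the reads are divided by the length of 1 coding transcript (vertical axis), both in FPKM on log axes. The line marks equal values, and the genes furthest above it, such as Atr (2.53 and 7.38 FPKM) and Msh3 (4.04 and 11.5), have deposited lengths far longer than that transcript.

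Of 96 further repair genes, all measured, 54 were higher and 42 lower, where 54.1% of all genes were higher. Their median difference was 0.020, against 0.013 over all genes. Their ratio intervals lay above 1 for 11 and below 1 for 3, where 11.6% and 7.85% of all genes had such intervals, and 1 of the 96 was at least 1.2-fold higher. By pathway, 9 of 17 signalling genes, 12 of 21 homologous recombination genes, 8 of 12 Fanconi genes, 4 of 4 mismatch repair genes, 3 of 8 end joining genes and 10 of 16 base excision genes were higher. Among the excision and bypass pathways that have no member here, 5 of 11 nucleotide excision genes and 3 of 7 translesion synthesis genes were higher. The mismatch repair genes had a median difference of 0.12, and 2 of the 4 had an interval above 1. End joining, where the 4 measured members were all higher, thus had 5 of 8 further genes lower.

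At a mean of at least 5 FPKM the largest differences among these further genes were small too. Etaa1, an activator of ATR, was at 12.3 and 14.3 FPKM, a ratio of 1.17 (1.09 to 1.25), and the base excision glycosylase gene Nthl1 was at 8.72 and 10.1 FPKM, a ratio of 1.16 (0.982 to 1.37). Ercc5, which encodes the nucleotide excision nuclease XPG, was at 7.01 and 5.87 FPKM, a ratio of 0.837 (0.768 to 0.913). Xpa, a damage-checking factor of the same pathway, was at 5.36 and 4.71 FPKM, a ratio of 0.879 (0.738 to 1.04).

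**Figure D4:**
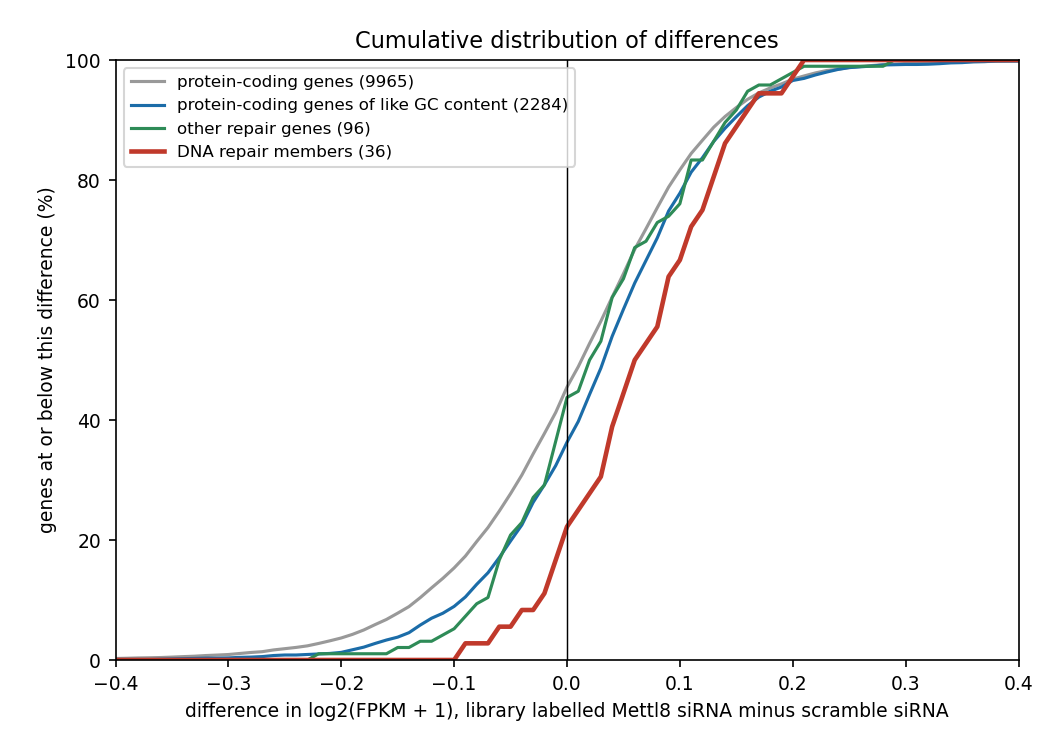
Cumulative percentage of genes (vertical axis) at or below each difference in log2(FPKM + 1) between the Mettl8-labelled library and the scramble-labelled library, for 36 measured members, 96 other repair genes, 9965 protein-coding genes and the 2284 of these with a GC content within the interquartile range of the members. The curve of the members lies to the right of the others near 0, with 28 of 36 genes above 0, a count that becomes 25 with median-ratio scaling (47.3% of all genes) and 35 with equal FPKM sums (75.5% of all genes).

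GC content moved with the differences across measured protein-coding genes (Spearman's rho -0.30 and Pearson's r -0.27 over 9965 genes, all from the 2 libraries). The transcripts of the members had a median GC content of 46.2%, against 50.5% for measured protein-coding genes. Of the protein-coding genes within the members' interquartile range of GC content (44.3% to 49.0%), 63.7% were higher, the ratio interval lay above 1 for 18.7%, and the median difference was 0.033. The values of all 36 measured members, also those outside that range of GC content, were 28 of 36, 12 of 36 and 0.061. When each member was set against the median of protein-coding genes in its own bin of 2 percentage points, 23 of 36 were above it, and the median of member minus bin over all 36 was 0.026. Of the members, 5 of 7 were higher below 43% GC, 10 of 10 from 43% to 46%, 8 of 11 from 46% to 50%, and 5 of 8 at 50% or more. The shares of protein-coding genes in the same classes were 73.6%, 67.6%, 60.8% and 43.8%. Across the 36 members, Spearman's rho between GC content and difference was -0.21 (Pearson's r -0.28), where all points share the 2 libraries. The part of GC content in the members' shift was not tested.

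**Figure D5:**
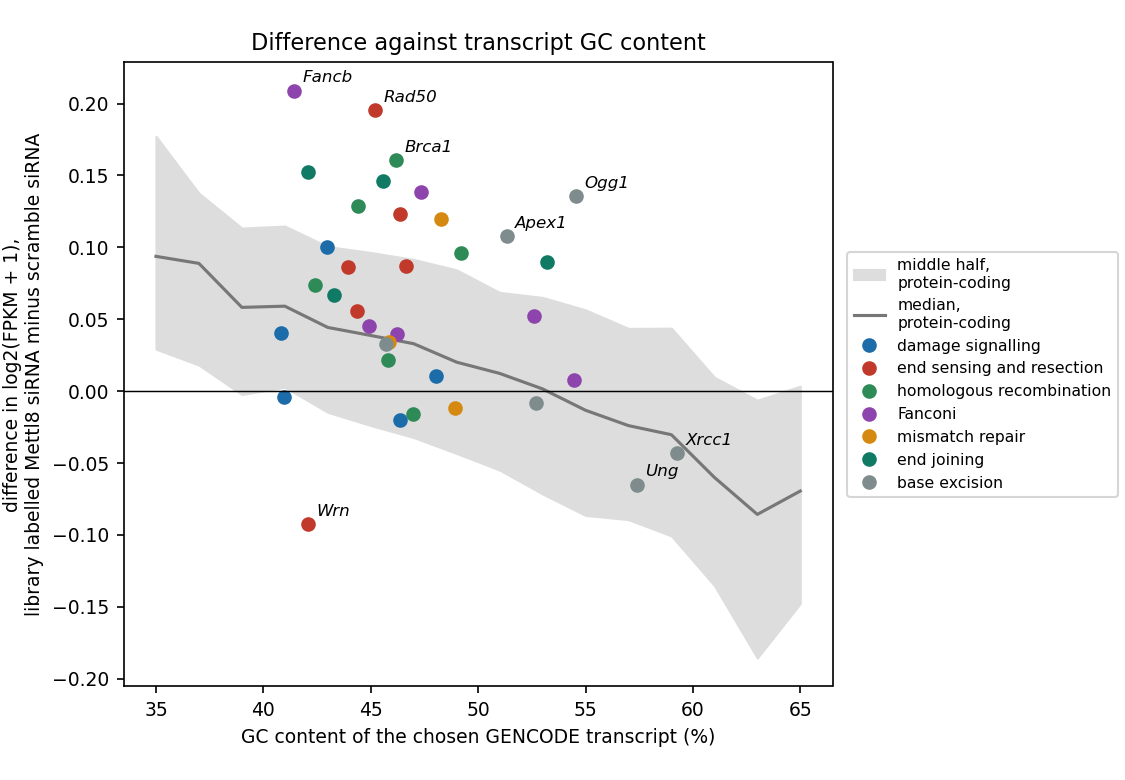
Difference in log2(FPKM + 1) between the Mettl8-labelled library and the scramble-labelled library (vertical axis) against the GC content of the chosen transcript in percent (horizontal axis), for 36 measured members coloured by pathway. The grey line and band give the median and the interquartile range of protein-coding genes in bins of 2 percentage points, and 23 of the 36 points lie above the line.

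Many members share a start region with another gene. For 16 of the 37 (43.2%) the start of another protein-coding gene lies within 1000 bases on the opposite strand, compared with 16.0% of 9965 measured protein-coding genes. The pairs include Atm and Npat (307 bases apart), Brca1 and Nbr1 (270), Palb2 and Dctn5 (95), Fancd2 and Emc3 (30), Prkdc and Mcm4 (489) and Apex1 and Osgep (75). Of the 15 neighbours with a mean of at least 1 FPKM, 7 were higher, where 54.1% of all genes were. Measured members with such a neighbour were higher in 11 of 15 cases, and those without in 17 of 21.

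In single pairs, a neighbour was not always higher where the member was. Nbr1, which encodes an autophagy receptor, was at 11.6 FPKM in both libraries, a ratio of 1.00 (0.942 to 1.06), beside Brca1 at 8.92 and 10.1. Mcm4, a subunit of the replicative helicase, was at 27.2 and 25.3 FPKM, a ratio of 0.929 (0.880 to 0.981), beside Prkdc at 5.54 and 5.85. Ankrd49 was at 3.72 and 4.36 FPKM, a ratio of 1.17 (1.04 to 1.31), and was higher together with Mre11a. Dctn5, a dynactin subunit gene, was at 9.66 and 11.2 FPKM, a ratio of 1.16 (1.05 to 1.28), beside Palb2 at 3.56 and 3.51.

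The E2F letters of the promoters can be set beside the differences. Of the 17 measured members with at least 1 of the 4 spellings, 14 were higher, 8 with an interval above 1, and the median difference was 0.090. Of the 13 without, 9 were higher, 3 with an interval above 1, and the median was 0.033. Over all genes, 54.1% were higher and 11.6% had an interval above 1. Genes outside the members were not split by these spellings. Both medians lie within the range of the single genes, and a link between letters and differences was not tested. Of the 69 further repair genes with a promoter entry, 22 (31.9%) held a spelling.

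Exons shared with other genes limit some of these values, because the strand setting of the counting is not given in the sources used here. Some exon bases of 19 of the 37 genes also belong to another gene, and for 7 this holds for more than 10% of them. Apex1 is the most affected, with 61.7% of its exon bases also in exons of Pip4p1 on the opposite strand. Fancc (18.6%), Fanci (16.0%, with Polg), Rad54l (15.4%, with Lrrc41) and Trp53bp1 (15.0%, with Tubgcp4) follow. Of the 18 measured members with no shared exon bases 13 were higher, and 7 had an interval above 1, among them Brca1, Rad50, Xrcc5 and Atm. Over all genes, with or without shared exons, 54.1% were higher and 11.6% had an interval above 1. Exon sharing was worked out for the members only, so no share of unshared genes is available.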

How the data were processed

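RNA sequencing values of 2 libraries, 1 per group, were used. Per the submitters' processing notes, the authors used STAR 2.4.0i and featureCounts 1.5.0-p1 with mm10. The deposited values are FPKM to 2 decimals, with a gene length per symbol. For annotation, strand setting and handling of reads with several matches, details were not given in the sources used here.

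FPKM times length fell on whole multiples of 1 step (100% of 1761 and 1885 low values of genes under 150 bases, within rounding plus 0.005 reads), which gave denominators of 28462800 and 27817800 reads and the reads per gene. For long genes rounding leaves an error of a few reads. Level intervals are exact Poisson and ratio intervals exact Clopper-Pearson, both at 95% and for counting error only. Differences are log2(FPKM + 1). Genes were kept from a mean of 1 FPKM upwards, and a 1.2-fold difference was the rule of size. With 1 library per group no test could be made. GENCODE M21 (GRCm38, the assembly of mm10; 94.3% of symbols matched) gave positions, exons and transcripts. The transcript chosen per gene was the longest principal coding one, whose GC content was used. The steps were tested on simulated data, with Python 3.11.15, numpy 2.4.6, pandas 2.3.3 and scipy 1.17.1.

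All 37 members were named, with Mettl8 and the 2 largest differences each way among 96 further repair genes at a mean of at least 5 FPKM. Markers not used as members are given as lists. Members, lists and limits were chosen with earlier results of these data known. The alternatives were a pseudocount of 0.1, other filters, 2 rescalings, other fold limits, and other sets of genes for the background. Some genes of these pathways and some neighbours are not reported here by name.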

Additional observations from a re-analysis of the deposited data

How the results depend on the processing

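The median difference of the members, 0.061, stayed positive throughout, at 0.079 with a pseudocount of 0.1, 0.067 with no filter on low values, 0.077 at a mean of at least 5 FPKM, 0.040 with the median ratio of genes at a mean of at least 5 FPKM set to 1 (median-ratio scaling) and 0.14 with equal FPKM sums. The median of all genes was 0.016, 0.014, 0.025, -0.0085 and 0.089 under the same settings. The number of higher members, 28 of 36, became 16 of 22 at a mean of at least 5 FPKM and 13 of 18 among members with no shared exon bases, where fewer genes enter. Of all genes, 54.1% were higher at the main setting and 59.0% at a mean of at least 5 FPKM. For genes with no shared exon bases no such share is given. The count of members at least 1.2-fold higher, 0, became 1 with a pseudocount of 0.1 (Fancb), 2 with equal FPKM sums (Rad50 and Fancb) and 6 at a limit of 1.1-fold (Rad50, Brca1, Fancb, Fanci, Xrcc5 and Lig4). None was 1.2-fold lower under any of these settings. At the main setting 4.48% of all genes were at least 1.2-fold higher. For the alternative settings the share of all genes past the limit is not given, so those counts cannot be set against it. The 12 ratio intervals above 1 became 7 with median-ratio scaling (Atm, Mre11a, Rad50, Brca1, Fanci, Xrcc5 and Apex1), 26 with equal FPKM sums, and 7 of 18 with no shared exon bases. Over all genes the interval lay above 1 for 11.6%, for 7.73% with median-ratio scaling and for 30.3% with equal FPKM sums. Intervals below 1 numbered 1 (Ung) with median-ratio scaling. No member with an interval above 1 changed direction. Of the 36 members, 3 others changed sign with median-ratio scaling and 7 with equal FPKM sums. The comparisons with genes of at least 4000 bases, protein-coding genes, like GC content, at least 200 reads and unshared exons were chosen after seeing the data. No paired analysis was possible because each group has 1 library. Depth limits the low genes most: Xrcc4 had 100 and 135 reads, Neil3 185 and 189, and Fancb 215 and 256.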
